A study of Homo sapiens with 2 samples.

Results

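MCF10A cells that had received EGF for 15 h were set against unstimulated cells of the same pools (0 h). MCF10A cells come from human breast epithelium, have become immortal without forming tumours, carry a basal character and depend on EGF to proliferate. Cells were chosen by their sample tag and the condition name that the tag annotation gives it, which found 552 EGF 15 h cells and 204 unstimulated cells, together 756 of the 4837 cells of the series. Library 1 held 488 EGF 15 h cells and 175 unstimulated cells, and library 2 held 64 EGF 15 h cells and 29 unstimulated cells. The remaining cells had EGF alone for 20 h or 30 h, or EGF with a MEK or PI3K inhibitor. The labels state neither the dose of EGF nor whether growth factors were withdrawn beforehand.

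EGF binds its receptor EGFR, a tyrosine kinase of the ERBB family, and switches on the RAS-RAF-MEK-ERK cascade and the PI3K-AKT-mTOR pathway. ERK drives a first wave of immediate early transcription factors and then phosphatases and Sprouty proteins that act back on the pathway. AKT keeps FOXO transcription factors out of the nucleus, so their target genes are high in resting cells. Cyclin D with CDK4 or CDK6, and then cyclin E with CDK2, free E2F factors from the RB protein, and E2F turns on the genes of DNA replication. MCF10A cells are widely used to study this route from quiescence to DNA synthesis.

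All conditions of a biological replicate were tagged, pooled and sequenced as 1 library, so n = 2 for each condition and each library holds both conditions. Counts of unique molecular identifiers (UMIs, 1 per captured transcript) were summed over the cells of a library and condition. The EGF 15 h sums held 6112922 UMIs in library 1 and 635365 in library 2, and the 0 h sums held 1433203 and 213216. The median cell had 12164.5 and 8400 UMIs at EGF 15 h, against 7975 and 7024 UMIs at 0 h, so an EGF 15 h cell yielded more transcripts. Levels are UMIs per 1000000 of the scaled sum (CPM), and so are shares. A gene with an unchanged number of transcripts per cell falls in CPM when cells yield more. In a sum more expressing cells cannot be told apart from more RNA per cell. No cell barcode was shared by the libraries. The correlation of the libraries across genes was 0.964 at EGF 15 h and 0.906 at 0 h. The sums were not brought to equal depth for it, and the 0 h sum of library 2 was the smallest. The part of depth in the lower value was not tested. The 29 unstimulated cells of library 2 carried more G2/M transcripts than the 175 of library 1. Levels or differences are therefore given for both libraries for many genes. Other genes are given by their fitted log2 fold change alone, which does not show each library.

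The cells carried keratin and TP63 transcripts of basal breast epithelium. Keratin 5 (KRT5) stood at 2498 and 3131 CPM in EGF 15 h cells, against 3619 and 3551 CPM in unstimulated cells, and keratin 14 (KRT14) at 6991 and 6797 CPM in EGF 15 h cells, against 10939 and 9222 CPM in unstimulated cells. TP63, the transcription factor of basal epithelia, was detected in all 4 sums, at 10.2 and 8.52 CPM in EGF 15 h cells and 13.5 and 22.1 CPM in unstimulated cells. The estrogen receptor gene ESR1 had 0 UMIs in EGF 15 h cells and 1 UMI in unstimulated cells. The epithelial gene EPCAM was scarce, with 13 and 5 UMIs in EGF 15 h cells and 1 and 1 in unstimulated cells. The mesenchymal gene VIM was present in all 4 sums, at 429 and 190 CPM in EGF 15 h cells, against 346 and 349 CPM in unstimulated cells. Of 18 markers of other cell types, 5 were in both tables. Among them the endothelial gene PECAM1 had 6 UMIs at 15 h and 2 at 0 h, and the myeloid gene LYZ had 1 UMI at 15 h and 0 at 0 h. The fibroblast gene DCN is given with the matrix genes. CD14, a myeloid marker, had 148 and 16 UMIs at EGF 15 h and 28 and 8 UMIs at 0 h. The summed counts of PECAM1, CD14, LYZ, COL1A1 and DCN were 261 and 22 UMIs in EGF 15 h cells and 168 and 28 UMIs in unstimulated cells, and their part in the results was not tested.

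Expression was widely different after 15 h. Of 11147 tested genes, 3116 (28.0%) passed the threshold of an adjusted p of 0.05 (edgeR quasi-likelihood test with the library as a block), 1567 of them higher (14.1%) and 1549 lower (13.9%). These genes are referred to as called. The difference had the same sign in both libraries for 2832 of them and opposite signs for 284. The median log2 fold change of all tested genes was 0.02. With sums scaled to library totals it was 0.21, and 2260 genes were higher and 1152 lower, so the direction of a small change depends on the scaling. Without the 0 h sum of library 1, which leaves 29 unstimulated cells, 220 genes were higher and 282 lower. Without the 15 h sum of library 1, which leaves 64 EGF cells, the counts were 760 and 670. The p-values rest on the spread that the condition and library terms leave over all 16 sums, which come from only 2 pooled cultures. The mean difference between the cultures is thus taken out. An exact two-sided permutation test of 2 sums against 2, without regard to the library, cannot go below 0.33. A list's counts below are over its tested members, since genes with too few UMIs over all 16 sums were not tested, and each is to be read against the 14.1% and 13.9% above.

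**Figure D1:**
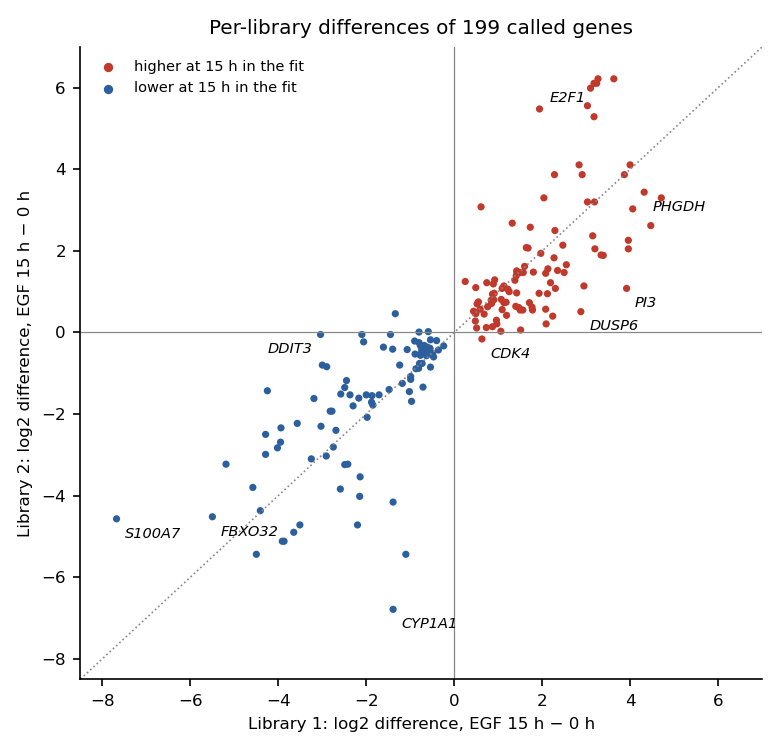
Difference of log2 CPM between EGF 15 h and 0 h in library 1 (horizontal) and library 2 (vertical) for the 199 named genes that were called, 1 point per gene, red where the fit put EGF 15 h higher and blue where lower; the dotted line marks equal differences. Most of these genes were named only if their libraries agreed in sign, so most points lie in the quadrants of equal sign by choice. Among all 3116 called genes, 284 had opposite signs. CDK4 is a gene whose libraries disagree. DUSP6 and DDIT3 lie closer to 0 in library 2 (log2 differences of 0.51 and -0.05) than in library 1 (2.88 and -3.04).

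The EGFR ligands AREG, TGFA and EPGN, made by the cells themselves, rose after 15 h of EGF, and the receptors EGFR and ERBB3 fell in CPM. Of 6 tested ligands 3 rose and 0 fell, with a median log2 fold change of 1.07. AREG (amphiregulin, chr4:74445134-74455009 on GRCh38), a ligand that EGFR signalling itself induces, stood at 420.0 and 572 CPM in EGF 15 h cells, against 96.1 and 296 CPM in unstimulated cells (log2 fold change 1.76 ± 0.21, adjusted p = 2.8e-09). The sums did not overlap, and the gap was wider in library 1, with log2 differences of 2.12 and 0.95 in libraries 1 and 2. TGFA, another EGFR ligand, had 30.2 and 29.8 CPM in EGF 15 h cells, against 13.5 and 13.3 CPM in unstimulated cells (1.16 ± 0.31, adjusted p = 0.0035). EPGN (epigen) had 103 and 115 CPM in EGF 15 h cells, against 71.7 and 70.7 CPM in unstimulated cells (0.56 ± 0.18, adjusted p = 0.018). Of 8 tested receptors and brakes 1 rose and 2 fell. Per cell that list gave 3.36 and 3.30 UMIs at EGF 15 h, against 2.03 and 2.69 UMIs at 0 h. EGFR itself stood at 133 and 152 CPM in EGF 15 h cells, against 195 and 199 CPM in unstimulated cells, a fall by 0.51 on the log2 scale (SE 0.13, adjusted p = 0.0022). ERBB3, the kinase-impaired receptor that couples to PI3K, was low throughout, at 0.679 and 1.42 CPM in EGF 15 h cells, against 5.9 and 17.7 CPM in unstimulated cells (-3.32 ± 0.77, adjusted p = 0.00074). The riser was PTPN1, a tyrosine phosphatase that acts on receptor kinases, at 88.9 and 65.3 CPM in EGF 15 h cells, against 33.7 and 26.5 CPM in unstimulated cells (1.38 ± 0.21). The calls of AREG, TGFA, EPGN, EGFR and PTPN1 ended without the 0 h sum of library 1 (adjusted p = 0.073 to 0.46). Those of TGFA, EPGN, EGFR and ERBB3 ended without the 15 h sum of library 1 (adjusted p = 0.078 to 0.24). Those of EPGN and EGFR ended without the library block (adjusted p = 0.064 to 0.074). Among the ligands, 0 were higher and 0 lower without the 0 h sum of library 1. Among the receptors, 0 were higher and 1 lower without the 0 h sum of library 1, 1 and 0 without the 15 h sum of library 1 and 1 and 1 without the library block.

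Genes that report ERK activity were high at 15 h. Of 19 tested ERK feedback and output genes 14 rose, 0 fell and 5 did not pass, with a median log2 fold change of 1.94 (1.91 with the gene absent at 0 h set to its bound). DUSP4, a nuclear phosphatase that removes phosphate from ERK, stood at 60.1 and 65.3 CPM in EGF 15 h cells, against 3.37 and 13.3 CPM in unstimulated cells (3.61 ± 0.35, adjusted p = 9.8e-12). DUSP6, the cytoplasmic ERK phosphatase, had 21.9 and 12.8 CPM in EGF 15 h cells, against 2.53 and 8.83 CPM in unstimulated cells (2.52 ± 0.50, adjusted p = 7.7e-05). The DUSP6 sums did not overlap, but the log2 differences were 2.88 and 0.51 in libraries 1 and 2, and the 0 h value of library 2 rests on 2 UMIs. PHLDA1, a pleckstrin homology protein induced by growth factors, had 55.5 and 29.8 CPM in EGF 15 h cells, against 6.75 and 13.3 CPM in unstimulated cells (2.70 ± 0.38, adjusted p = 1.1e-07). SPRY1, which blocks RAS activation by receptor kinases, had 25 and 3 UMIs in EGF 15 h cells and none in unstimulated cells, at least 2-fold higher against a floor of 3 counts over the unstimulated group (adjusted p = 0.014). CCND1 (cyclin D1, chr11:69641087-69654474), the ERK output that starts the G1 programme, stood at 169 and 206 CPM in EGF 15 h cells, against 39.6 and 75.1 CPM in unstimulated cells (1.94 ± 0.19, adjusted p = 1.9e-11). Across libraries, both EGF 15 h sums lay above both unstimulated sums for DUSP4, PHLDA1 and CCND1. The calls of DUSP6, PHLDA1 and SPRY1 ended without the 0 h sum of library 1 (adjusted p = 0.2 to 0.57). Those of DUSP6 and SPRY1 ended without the 15 h sum of library 1 (adjusted p = 0.096 to 0.099). Among the ERK list, 3 were higher and 0 lower without the 0 h sum of library 1 and 8 and 0 without the 15 h sum of library 1.

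**Figure D2:**
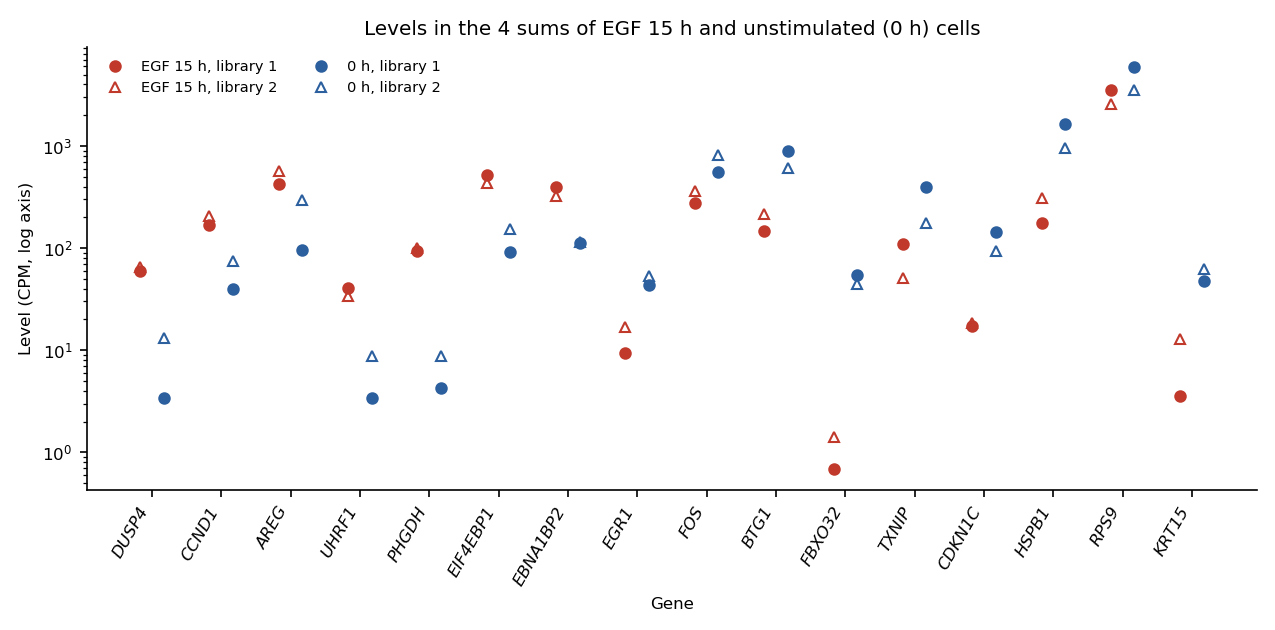
Level of 16 genes in CPM on a log axis in each of the 4 sums, EGF 15 h (red) left of 0 h (blue), filled circles for library 1 and open triangles for library 2. DUSP4, CCND1, UHRF1, PHGDH, EIF4EBP1 and EBNA1BP2 were higher in both EGF 15 h sums than in both 0 h sums, FBXO32, CDKN1C, HSPB1 and KRT15 were lower, and RPS9 at EGF 15 h in library 1 lay beside the 0 h value of library 2.

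The immediate early genes, by contrast, were lower at 15 h than in unstimulated cells. Of 22 tested genes 18 fell, 1 rose and 3 did not pass, with a median log2 fold change of -1.43. FOS, a subunit of the AP-1 transcription factor, stood at 278 and 365 CPM in EGF 15 h cells, against 551 and 813 CPM in unstimulated cells (-1.05 ± 0.14, adjusted p = 3.7e-08). EGR1 (chr5:138465490-138469315), a zinc finger factor that ERK induces within minutes, had 9.33 and 17 CPM in EGF 15 h cells, against 43.9 and 53 CPM in unstimulated cells (-2.14 ± 0.29, adjusted p = 8e-08). The sums of neither gene overlapped between conditions. The antiproliferative genes BTG1 and BTG2 were lower as well. BTG1 had 148 and 214 CPM in EGF 15 h cells, against 891 and 610.0 CPM in unstimulated cells (-2.26 ± 0.15, adjusted p = 1.6e-17). BTG2 had 12 and 27 CPM in EGF 15 h cells, against 68.3 and 61.8 CPM in unstimulated cells (-2.25 ± 0.27). The matricellular genes CTGF (CCN2) and CYR61 (CCN1), which YAP and SRF also drive, had log2 fold changes of -2.56 ± 0.31 and -1.85 ± 0.26. The orphan receptor NR4A1 had 1 and 1 UMIs in EGF 15 h cells and 4 and 1 in unstimulated cells, a ratio of 0.0856, 95% counting interval 0.00815 to 0.523. The member that went the other way was DUSP2, a phosphatase with 20 and 5 UMIs in EGF 15 h cells and none in unstimulated cells, at least 1.78-fold higher. Per cell, and so without division by depth, the 23 genes of the list in both tables together gave 17.8 and 26.5 UMIs in EGF 15 h cells, against 26.0 and 40.4 UMIs in unstimulated cells. The calls of CTGF, CYR61, NR4A1 and DUSP2 ended without the 0 h sum of library 1 (adjusted p = 0.095 to 0.63). Those of NR4A1 and DUSP2 ended without the 15 h sum of library 1 (adjusted p = 0.078 to 0.35). Those of FOS, NR4A1 and DUSP2 ended without the library block (adjusted p = 0.052 to 0.13). Among immediate early genes, 0 were higher and 9 lower without the 0 h sum of library 1, 0 and 14 without the 15 h sum of library 1 and 0 and 8 without the library block.

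Genes of resting cells and of active FOXO were lower after EGF. Of 21 tested FOXO targets and PI3K feedback genes 15 fell, 0 rose and 6 did not pass, with a median log2 fold change of -1.60. FBXO32 (atrogin-1, a ubiquitin ligase adaptor and FOXO target best known from wasting muscle) stood at 0.679 and 1.42 CPM in EGF 15 h cells, against 54 and 44.2 CPM in unstimulated cells (-6.05 ± 0.43, adjusted p = 2.4e-16). PDK4, the kinase that shuts pyruvate out of the citric acid cycle, had 14.9 and 22.7 CPM in EGF 15 h cells, against 147 and 199 CPM in unstimulated cells (-3.30 ± 0.25, adjusted p = 2.9e-15). TXNIP (chr1:145992435-145996600), an arrestin-like brake on glucose uptake, had 110.0 and 51.1 CPM in EGF 15 h cells, against 396 and 177 CPM in unstimulated cells (-1.83 ± 0.15, adjusted p = 3.8e-14). Its log2 differences of -1.85 and -1.78 were close in both libraries. CCNG2, an unconventional cyclin of resting cells, had 7.13 and 8.52 CPM in EGF 15 h cells, against 37.1 and 30.9 CPM in unstimulated cells (-2.31 ± 0.30). BCL6, a transcriptional repressor, had 1.02 and 1.42 CPM in EGF 15 h cells, against 24.5 and 13.3 CPM in unstimulated cells (-4.38 ± 0.54). For each of these 5 genes both EGF 15 h sums lay below both unstimulated sums. CDKN1B, the CDK inhibitor p27 and a FOXO target, was not called, at 8.65 and 8.52 CPM in EGF 15 h cells, against 11.8 and 13.3 CPM in unstimulated cells (-0.48 ± 0.42, adjusted p = 0.43).

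Among growth arrest and quiescence genes, 13 of 21 tested fell and 0 rose (median -1.52). This list shares TXNIP, CCNG2, KLF9, PIK3IP1 and CDKN1B with the one before, and BTG1 with the immediate early genes. SELENOP, a secreted selenium carrier, stood at 4.75 and 7.1 CPM in EGF 15 h cells, against 81 and 48.6 CPM in unstimulated cells (-3.96 ± 0.33, adjusted p = 4e-14). PNRC1, a nuclear receptor coregulator, stood at 27.3 and 42.6 CPM in EGF 15 h cells, against 196 and 163 CPM in unstimulated cells (-2.66 ± 0.19, adjusted p = 6.4e-16). The Krüppel-like factor KLF9 stood at 3.22 and 1.42 CPM in EGF 15 h cells, against 16 and 22.1 CPM in unstimulated cells (-2.49 ± 0.49). Both EGF 15 h sums lay below both unstimulated sums for SELENOP, PNRC1 and KLF9. The calls of BCL6 and KLF9 ended without the 0 h sum of library 1 (adjusted p = 0.06 to 0.073). Without 1 of the 4 sums or the block, between 11 and 15 FOXO-list genes were lower.

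A forkhead motif can be looked for in these promoters. The letters TGTTTAC, on either strand, occurred in the RefSeq windows of 5 of 23 FOXO-list genes (21.7%), against 4.19% of 27305 genes with a window and 3.46% of 8727 tested ones. The windows run from 250 bases before to 50 after each annotated start on GRCh38.p14, and a gene counts when any of its windows holds the letters. TXNIP is shown because its fall was close in both libraries. The 250 bases before its start are printed 5′ to 3′ with the match in capitals.
TXNIP, chr1:145996580-145996829 on the minus strand: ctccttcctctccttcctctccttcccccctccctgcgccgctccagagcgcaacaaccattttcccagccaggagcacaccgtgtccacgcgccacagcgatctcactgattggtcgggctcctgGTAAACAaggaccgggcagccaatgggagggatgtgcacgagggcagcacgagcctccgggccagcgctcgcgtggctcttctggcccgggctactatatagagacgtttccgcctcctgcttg
The match is a description of letters in this window, as are those given later for other lists. The window of CCNG2, a faller named above, held no match, nor did that of another annotated TXNIP start.

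MYC and several genes of G1 rose, and repressive partners of the MYC network fell. MYC stood at 237 and 247 CPM in EGF 15 h cells, against 170.0 and 203 CPM in unstimulated cells, a small rise (0.42 ± 0.16, adjusted p = 0.035). Of the 9 tested genes of the MYC network 1 rose and 3 fell, and the fallers are MAX partners known to oppose MYC. MXD4 had 52.6 and 39.8 CPM in EGF 15 h cells, against 140.0 and 53 CPM in unstimulated cells (-1.29 ± 0.17), and MXI1 and MNT had log2 fold changes of -0.75 ± 0.27 and -1.27 ± 0.41. Of 22 tested G1 cyclins, CDKs and E2F regulators 10 rose and 0 fell, with a median of 0.77 (0.71 with genes absent at 0 h at their bounds). E2F1, the activating E2F of G1, had 27.2 and 35.5 CPM in EGF 15 h cells, against 2.53 and 0 CPM in unstimulated cells, a ratio of 13.2, 95% counting interval 4.45 to 64.6 (adjusted p = 2.8e-07). CCNE2 (cyclin E2) had 11.7 and 21.3 CPM in EGF 15 h cells, against 1.69 and 4.42 CPM in unstimulated cells, a ratio of 5.99, 95% counting interval 1.98 to 29.6 (adjusted p = 0.005). CDC25A, the phosphatase that activates CDK2, had 42 and 5 UMIs in EGF 15 h cells and none in unstimulated cells, at least 3.35-fold higher. RBL1 (p107), an RB family member and E2F target, had 14.8 and 18.5 CPM in EGF 15 h cells, against 3.37 and 4.42 CPM in unstimulated cells (2.10 ± 0.56). CDK4 passed narrowly with libraries that disagreed, at 82.6 and 55.4 CPM in EGF 15 h cells, against 53.1 and 61.8 CPM in unstimulated cells (log2 differences 0.63 and -0.16, adjusted p = 0.042).

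Of 5 tested CDK inhibitors 2 fell and 0 rose. CDKN1C (p57, chr11:2883213-2885773) had 17.1 and 18.5 CPM in EGF 15 h cells, against 144 and 92.8 CPM in unstimulated cells (-2.96 ± 0.21, adjusted p = 6.4e-16). CDKN2D (p19) was the other faller (-1.10 ± 0.37, adjusted p = 0.02), with log2 differences of -1.32 in library 1 and 0.23 in library 2. CDKN1A (p21) was not called, at 33.8 and 46.9 CPM in EGF 15 h cells, against 45.5 and 53 CPM in unstimulated cells (-0.39 ± 0.24, adjusted p = 0.24), and the same held for CDKN1B above. The calls of MYC, MXD4, MXI1, MNT, CCNE2, CDC25A, RBL1, CDK4 and CDKN2D ended without the 0 h sum of library 1 (adjusted p = 0.32 to 0.81). Those of MYC, MXI1, MNT, CDK4 and CDKN2D ended without the 15 h sum of library 1 (adjusted p = 0.41 to 0.95). Those of MYC, MXI1, MNT, CDK4 and CDKN2D ended without the library block (adjusted p = 0.064 to 0.31). Those of MXI1 and CDKN2D ended with scaling to library totals (adjusted p = 0.053 to 0.12). Among the MYC network, 0 were higher and 0 lower without the 0 h sum of library 1, 0 and 1 without the 15 h sum of library 1 and 0 and 1 without the library block. Among the G1 list, 3 were higher and 0 lower without the 0 h sum of library 1. Among the CDK inhibitors, 0 were higher and 1 lower without the 0 h sum of library 1, 0 and 1 without the 15 h sum of library 1, 0 and 1 without the library block and 0 and 1 with scaling to library totals.

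Most genes of DNA replication rose. Of 22 licensing genes, which load and fire replication origins, 17 rose, 0 fell and 5 did not pass, with a median log2 fold change of 1.55 (1.49 with a gene absent at 0 h at its bound). GINS2, a subunit of the replicative helicase, stood at 36.3 and 39.8 CPM in EGF 15 h cells, against 1.69 and 4.42 CPM in unstimulated cells, a ratio of 17.3, 95% counting interval 5.84 to 84.3 (adjusted p = 8.8e-08). MCM10, which joins helicase and polymerase, had 11.9 and 19.9 CPM in EGF 15 h cells, against 0.843 and 0 CPM in unstimulated cells (ratio 18, 95% counting interval 3.14 to 719, adjusted p = 5.4e-05). ORC1 of the origin recognition complex had 36 and 5 UMIs in EGF 15 h cells and 1 and 0 in unstimulated cells, a ratio of 8.78, 95% counting interval 1.49 to 355. GINS4 had 19 and 6 UMIs in EGF 15 h cells and none in unstimulated cells, at least 1.78-fold higher. Of 41 tested DNA synthesis genes 25 rose and 0 fell, with a median of 1.43. UHRF1, which recruits the maintenance DNA methyltransferase to new DNA, had 40.4 and 34.1 CPM in EGF 15 h cells, against 3.37 and 8.83 CPM in unstimulated cells (3.20 ± 0.42, adjusted p = 2.1e-08). The histone chaperone ASF1B had 12 and 19.9 CPM in EGF 15 h cells, against 0.843 and 4.42 CPM in unstimulated cells (ratio 9.1, 95% counting interval 2.44 to 76.3). The repair gene BRCA2 had 11.2 and 22.7 CPM in EGF 15 h cells, against 2.53 and 0 CPM in unstimulated cells (ratio 5.85, 95% counting interval 1.93 to 29). The chromatin remodeller HELLS had 39.7 and 48.3 CPM in EGF 15 h cells, against 9.28 and 4.42 CPM in unstimulated cells (2.27 ± 0.34, adjusted p = 6.7e-07). For UHRF1, ASF1B, BRCA2 and HELLS both EGF 15 h sums lay above both unstimulated sums. TK1, TYMS and RRM1, which make deoxynucleotides, were among the 16 that did not pass. The calls of GINS2, MCM10, GINS4, ORC1, UHRF1, ASF1B and BRCA2 ended without the 0 h sum of library 1 (adjusted p = 0.09 to 0.54). That of ORC1 ended without the 15 h sum of library 1 (adjusted p = 0.12). Those of GINS4 and BRCA2 ended without the library block (adjusted p = 0.051 to 0.056). Among licensing genes, 0 were higher and 0 lower without the 0 h sum of library 1. Among DNA synthesis genes, 1 was higher and 0 lower without the 0 h sum of library 1. The list medians without that sum were 0.98 for licensing and 0.86 for DNA synthesis.

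The E2F letters TTTNNCGC, on either strand, occurred in the windows of 13 of 19 licensing genes (68.4%), 19 of 36 DNA synthesis genes (52.8%) and 6 of 16 genes of the G1 list (37.5%), against 8.23% of all 27305 genes and 13.3% of the 8727 tested genes. Windows for 5 called genes are shown so that the placement of the letters can be compared. Each line gives the 250 bases before the annotated start, 5′ to 3′ on the gene's strand (RefSeq, GRCh38.p14), with matches in capitals.
GINS2, chr16:85688955-85689204 on the minus strand: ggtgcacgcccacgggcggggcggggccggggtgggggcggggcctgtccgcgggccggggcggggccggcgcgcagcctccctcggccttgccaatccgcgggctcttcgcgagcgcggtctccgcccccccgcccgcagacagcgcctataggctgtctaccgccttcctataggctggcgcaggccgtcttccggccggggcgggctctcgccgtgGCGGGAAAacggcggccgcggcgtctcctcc
MCM6, chr2:135876444-135876693 on the minus strand: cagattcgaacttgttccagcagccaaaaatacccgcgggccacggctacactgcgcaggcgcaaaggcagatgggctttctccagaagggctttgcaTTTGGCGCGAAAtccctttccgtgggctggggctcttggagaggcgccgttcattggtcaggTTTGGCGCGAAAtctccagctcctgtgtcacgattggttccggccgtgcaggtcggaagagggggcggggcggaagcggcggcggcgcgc
UHRF1, chr19:4909251-4909500 on the plus strand: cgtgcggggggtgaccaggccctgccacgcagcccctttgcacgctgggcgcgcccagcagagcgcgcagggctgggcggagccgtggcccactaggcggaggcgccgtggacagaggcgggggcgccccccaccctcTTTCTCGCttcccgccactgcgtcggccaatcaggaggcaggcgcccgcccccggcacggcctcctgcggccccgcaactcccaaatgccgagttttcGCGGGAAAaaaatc
E2F1, chr20:33686386-33686635 on the minus strand: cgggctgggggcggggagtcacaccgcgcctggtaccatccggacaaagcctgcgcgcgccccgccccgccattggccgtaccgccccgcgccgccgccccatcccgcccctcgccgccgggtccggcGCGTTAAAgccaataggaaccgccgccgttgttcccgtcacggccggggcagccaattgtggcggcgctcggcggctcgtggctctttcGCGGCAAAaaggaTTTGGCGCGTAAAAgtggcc
DTL, chr1:212035498-212035747 on the plus strand: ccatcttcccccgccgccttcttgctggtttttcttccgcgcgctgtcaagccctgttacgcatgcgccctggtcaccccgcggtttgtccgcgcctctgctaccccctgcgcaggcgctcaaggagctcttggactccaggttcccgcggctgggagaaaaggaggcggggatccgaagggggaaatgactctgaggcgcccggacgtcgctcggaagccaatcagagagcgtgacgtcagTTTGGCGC
MCM6, a core subunit of the helicase, had 26 and 32.7 CPM in EGF 15 h cells, against 4.22 and 0 CPM in unstimulated cells (2.92 ± 0.52). Counted from the start, matches began at position -31 in GINS2, at -152, -148, -90 and -86 in MCM6, at -112 and -14 in UHRF1, at -122, -33, -20 and -14 in E2F1 and at -8 in DTL. In MCM6 the matches come as overlapping pairs on opposite strands, each pair reading as 12 unbroken capitals. UHRF1 has other annotated starts with their own windows, of which 1 more held a match.

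The rise in replication genes can be followed cell by cell. When each cell was thinned to 5000 UMIs, the 64 licensing and DNA synthesis genes gave a median of 7 and 12.5 UMIs per cell at EGF 15 h in libraries 1 and 2, against 4 and 6 UMIs at 0 h. The 90th percentile was 20 and 26.4 UMIs at EGF 15 h, against 6 and 12 at 0 h. The mean per cell was 2.52 times the unstimulated mean in library 1 and 1.93 times in library 2. Thinning left out 6 and 10 cells at EGF 15 h and 2 and 6 cells at 0 h, and unthinned cells had medians of 18 and 21 UMIs at EGF 15 h, against 6 and 10 at 0 h. At the same 5000 UMIs a cell showed a median of 1658.5 and 1773.5 genes at EGF 15 h, against 1480 and 1656 at 0 h. With EGF alone the replication median was 18 and 21 UMIs at 20 h and 15 and 16 UMIs at 30 h.

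**Figure D3:**
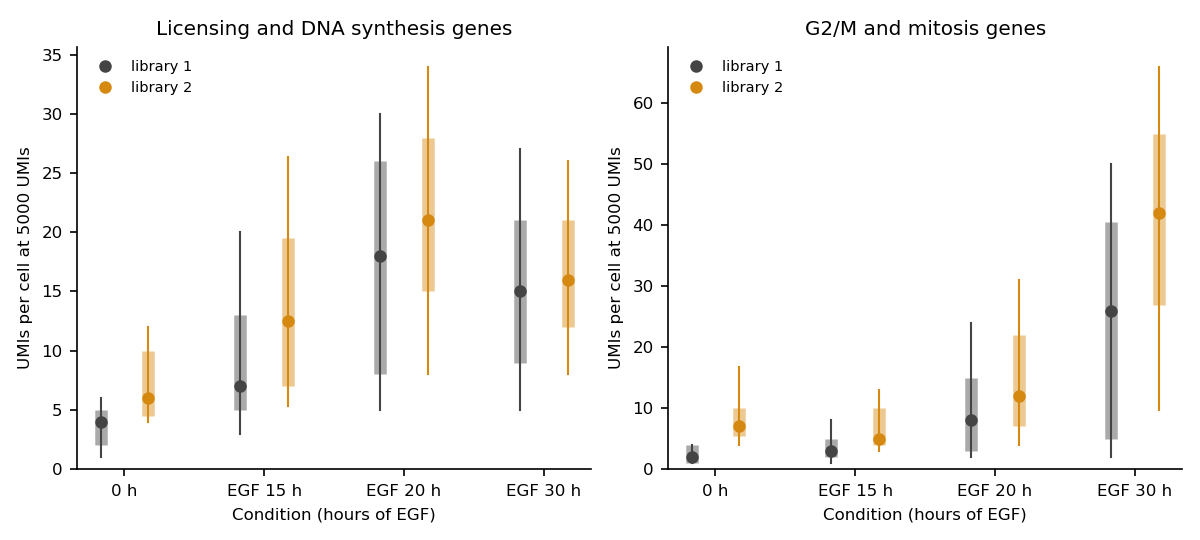
UMIs per cell, after thinning each cell to 5000 UMIs, from licensing and DNA synthesis genes (left) and from G2/M and mitosis genes (right), at 0 h and after 15, 20 and 30 h of EGF. Points are medians over cells, thick bars the 25th to 75th and thin lines the 10th to 90th percentile, in grey for library 1 and orange for library 2; replication counts at EGF 15 h reach 20 and 26.4 UMIs at the 90th percentile, against 6 and 12 at 0 h, while G2/M medians at 15 h are 3 and 5, against 2 and 7.

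Most genes of G2 and mitosis were not called at 15 h. Of 56 tested genes 7 rose, 1 fell and 48 did not pass, and the median log2 difference was 0.57 in library 1 and -0.13 in library 2. KIF20B, a mitotic kinesin, had 25.8 and 46.9 CPM in EGF 15 h cells, against 5.06 and 35.3 CPM in unstimulated cells (log2 differences 2.24 and 0.40, adjusted p = 0.0014). CENPM, a centromere protein, had 13.4 and 21.3 CPM in EGF 15 h cells, against 2.53 and 8.83 CPM in unstimulated cells (2.02 ± 0.56). CDC20, the activator of the anaphase-promoting complex, had 21.9 and 34.1 CPM in EGF 15 h cells, against 7.59 and 22.1 CPM in unstimulated cells (1.25 ± 0.38). The checkpoint gene MAD2L1 had 51.4 and 78.1 CPM in EGF 15 h cells, against 17.7 and 75.1 CPM in unstimulated cells, so its EGF 15 h sum of library 2 was near the unstimulated one (log2 differences 1.51 and 0.06). PTTG1 (securin) was the member that fell, with 66.7 and 85.2 CPM in EGF 15 h cells, against 110.0 and 216 CPM in unstimulated cells (-0.90 ± 0.18, adjusted p = 7.4e-05). MKI67, the proliferation marker Ki-67, had 10 and 14.2 CPM in EGF 15 h cells, against 3.37 and 22.1 CPM in unstimulated cells and was not called (adjusted p = 0.3). Per cell at 5000 UMIs the list gave a median of 3 and 5 UMIs at EGF 15 h, against 2 and 7 at 0 h, and the mean ratio was 1.59 in library 1 and 0.869 in library 2. Without thinning the medians were 8 and 11 UMIs at EGF 15 h, against 4 and 10 at 0 h. The direction in library 2, where 23 unstimulated cells were deep enough to be thinned, thus differed between thinned and unthinned cells. The letters TTTGAA (the CHR element of late cell cycle genes) were in the windows of 33 of 47 genes (70.2%), against 18.2% of all genes and 13.4% of tested ones.

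Histone genes were mixed. Of 10 tested replication-dependent histone genes, whose transcripts mostly lack poly(A) tails and are poorly captured, 0 rose and 1 fell, the linker histone HIST1H1C (-1.75 ± 0.41). Of 7 histone variant genes 3 rose and 1 fell, the risers being H2AFX (0.96 ± 0.26), H2AFZ (0.52 ± 0.13) and H3F3B (0.48 ± 0.11) and the faller H3F3A (-0.34 ± 0.10). The calls of KIF20B, CENPM, CDC20, MAD2L1, HIST1H1C, H2AFX, H2AFZ and H3F3A ended without the 0 h sum of library 1 (adjusted p = 0.54 to 1). Those of CDC20 and HIST1H1C ended without the 15 h sum of library 1 (adjusted p = 0.057 to 0.12). That of H3F3A ended without the 15 h sum of library 2 (adjusted p = 0.087). Those of KIF20B, CDC20, MAD2L1, H2AFX, H2AFZ, H3F3B and H3F3A ended without the library block (adjusted p = 0.051 to 0.4). That of H3F3A ended with scaling to library totals (adjusted p = 0.095). Among G2 and mitosis genes, 0 were higher and 3 lower without the 0 h sum of library 1, 14 and 1 without the 0 h sum of library 2, 6 and 3 without the 15 h sum of library 2 and 2 and 1 without the library block. Among replication-dependent histones, 0 were higher and 0 lower without the 0 h sum of library 1 and 0 and 0 without the 15 h sum of library 1. Among histone variants, 1 was higher and 0 lower without the 0 h sum of library 1, 3 and 2 without the 0 h sum of library 2, 3 and 0 without the 15 h sum of library 2, 0 and 0 without the library block and 3 and 0 with scaling to library totals.

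Most genes of ribosome production rose. Of 41 ribosome biogenesis genes 32 rose, 1 fell and 8 did not pass, with a median log2 fold change of 0.83 (0.80 with a gene absent at 0 h at its bound). EBNA1BP2 (the annotation places it at chr1:43164175-43270936), a processing factor of the large subunit, stood at 395 and 322 CPM in EGF 15 h cells, against 113 and 115 CPM in unstimulated cells (1.71 ± 0.14, adjusted p = 1.6e-14). The nucleolar protein LYAR had 149 and 112 CPM in EGF 15 h cells, against 38.8 and 57.4 CPM in unstimulated cells (1.74 ± 0.20). The small subunit factor RRP12 had 26.8 and 25.6 CPM in EGF 15 h cells, against 5.9 and 22.1 CPM in unstimulated cells (1.64 ± 0.39). UTP20, a component of the small subunit processome, had 30.2 and 31.2 CPM in EGF 15 h cells, against 11.8 and 4.42 CPM in unstimulated cells (1.52 ± 0.34). RRP12 was close to its unstimulated level in library 2 (log2 differences 2.09 and 0.21), and the other three differed in both libraries. TAF1D, part of the RNA polymerase I initiation complex, was the faller, at 147 and 183 CPM in EGF 15 h cells, against 223 and 181 CPM in unstimulated cells (log2 differences -0.59 and 0.02, adjusted p = 0.01). Per cell the list gave 96.7 and 79.7 UMIs at EGF 15 h, against 37.5 and 39.5 UMIs at 0 h.

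The E-box letters CACGTG, a site that MYC and other factors can bind, were in the windows of 16 of 35 ribosome biogenesis genes (45.7%) and 8 of 21 nucleotide and polyamine genes (38.1%), against 8.77% of all genes and 13.0% of tested genes. The 250 bases before the start of 2 of the 4 risers named here are shown, matches in capitals.
LYAR, chr4:4290022-4290271 on the minus strand: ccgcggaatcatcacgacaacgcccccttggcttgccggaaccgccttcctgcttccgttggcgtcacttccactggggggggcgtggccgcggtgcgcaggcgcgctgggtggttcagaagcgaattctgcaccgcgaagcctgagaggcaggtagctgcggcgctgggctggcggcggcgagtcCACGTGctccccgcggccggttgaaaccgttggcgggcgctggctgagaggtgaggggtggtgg
UTP20, chr12:101279855-101280104 on the plus strand: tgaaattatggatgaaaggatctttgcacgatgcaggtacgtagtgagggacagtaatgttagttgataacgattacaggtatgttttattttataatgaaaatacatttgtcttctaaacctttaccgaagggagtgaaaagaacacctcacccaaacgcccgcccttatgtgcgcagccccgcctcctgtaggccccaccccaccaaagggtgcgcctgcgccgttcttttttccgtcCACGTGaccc
The match began at -64 in LYAR and at -10 in UTP20, and EBNA1BP2, not printed, held matches at -237 and 42 in its windows. The window of another annotated LYAR start held no match.

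Most translation genes rose, with 19 of 24 factors and tRNA synthetases higher, 2 lower and a median of 0.87. EIF4EBP1, the mTOR-regulated repressor of cap-dependent translation, had 523 and 429 CPM in EGF 15 h cells, against 91.9 and 155 CPM in unstimulated cells (2.24 ± 0.15, adjusted p = 1.3e-16). The tryptophan synthetase WARS had 35 and 52.5 CPM in EGF 15 h cells, against 6.75 and 8.83 CPM in unstimulated cells (2.41 ± 0.38). For the isoleucine enzyme IARS and the glycine enzyme GARS the log2 fold changes were 1.73 ± 0.22 and 1.62 ± 0.19. Across libraries, both EGF 15 h sums lay above both unstimulated sums for EIF4EBP1, WARS, IARS and GARS. The fallers were the abundant elongation factors EEF1A1 (-0.57 ± 0.10) and EEF2 (-0.67 ± 0.10). Summed over the list, the level was lower, at 11670 and 10460 CPM in EGF 15 h cells, against 15360 and 10990 CPM in unstimulated cells. Per cell the list gave 140.9 and 115.1 UMIs at EGF 15 h, against 104.1 and 85.79 UMIs at 0 h. The calls of LYAR, RRP12, UTP20, TAF1D and WARS ended without the 0 h sum of library 1 (adjusted p = 0.054 to 0.87). Those of RRP12 and TAF1D ended without the 15 h sum of library 1 (adjusted p = 0.081 to 0.37). Those of TAF1D, EEF1A1 and EEF2 ended without the library block (adjusted p = 0.063 to 0.21). That of TAF1D ended with scaling to library totals (adjusted p = 0.13). Among biogenesis genes, 11 were higher and 0 lower without the 0 h sum of library 1, 19 and 0 without the 15 h sum of library 1, 27 and 0 without the library block and 35 and 0 with scaling to library totals. Among the translation list, 7 were higher and 2 lower without the 0 h sum of library 1 and 15 and 0 without the library block.

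The structural proteins of the ribosome went the other way in CPM. Of 38 ribosomal protein genes 29 fell and 0 rose, by a median of -0.33. RPS9 had 3546 and 2574 CPM in EGF 15 h cells, against 5907 and 3529 CPM in unstimulated cells (-0.62 ± 0.10, adjusted p = 1.9e-06). RPS27, RPS19 and RPLP0 had log2 fold changes of -0.55 ± 0.09, -0.52 ± 0.10 and -0.51 ± 0.10. For RPS9 the EGF 15 h sum of library 1 lay above the 0 h sum of library 2, so the fall is seen within a library and not across them. Per cell the 38 genes gave 2209 and 1412 UMIs at EGF 15 h, against 1700.0 and 1180.0 UMIs at 0 h, a larger number in each library, while their share of all UMIs was smaller. The call of RPLP0 ended without the 0 h sum of library 1 (adjusted p = 0.077). Those of RPS9, RPS27, RPS19 and RPLP0 ended without the library block (adjusted p = 0.11 to 0.37). Among ribosomal proteins, 0 were higher and 5 lower without the 0 h sum of library 1, 0 and 19 without the 15 h sum of library 1, 0 and 17 without the 15 h sum of library 2, 0 and 0 without the library block and 0 and 18 with scaling to library totals. Many of these genes have processed pseudogenes that can share their reads.

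**Figure D4:**
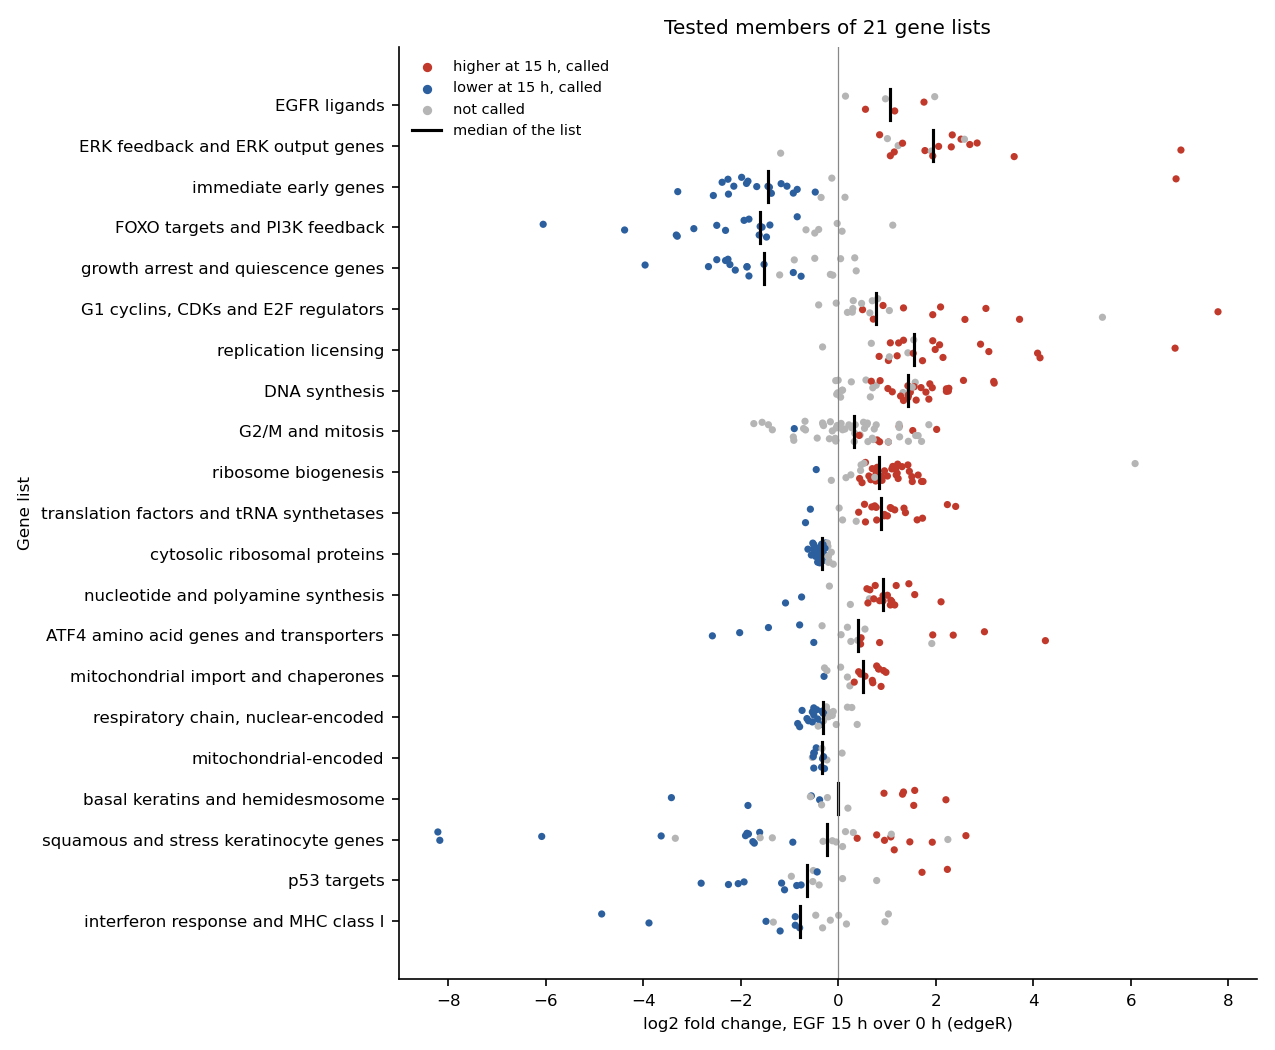
Log2 fold change of EGF 15 h over 0 h for each tested member of 21 gene lists, 1 point per gene, red where called higher, blue where called lower and grey where not called, with a black bar at the list's median. Replication licensing (median 1.55), DNA synthesis (1.43) and ERK output genes (1.94) lie right of 0, FOXO targets (-1.60) and immediate early genes (-1.43) left of it, and ribosomal proteins sit close together at -0.33; points beyond 5 are genes with no UMIs in unstimulated cells, whose fitted values are no measure of size.

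Most genes of nucleotide and polyamine synthesis rose, as did PHGDH and ASNS of serine and asparagine synthesis. Of 23 nucleotide and polyamine genes 18 rose and 2 fell, with a median of 0.92. The mitochondrial folate enzyme MTHFD1L had 49.7 and 27 CPM in EGF 15 h cells, against 11 and 8.83 CPM in unstimulated cells (2.11 ± 0.32). Its cytosolic relative MTHFD1 had 41.7 and 32.7 CPM in EGF 15 h cells, against 11.8 and 22.1 CPM in unstimulated cells (1.57 ± 0.30). IMPDH1, an enzyme of guanine nucleotide synthesis, had 93.2 and 122 CPM in EGF 15 h cells, against 27 and 79.5 CPM in unstimulated cells (1.45 ± 0.22). The spermidine synthase SRM had 368 and 345 CPM in EGF 15 h cells, against 154 and 172 CPM in unstimulated cells (1.19 ± 0.13, adjusted p = 2e-10). Both EGF 15 h sums lay above both unstimulated sums for MTHFD1L, MTHFD1, IMPDH1 and SRM. PRPS2 (-0.75 ± 0.25) and SHMT1 (-1.08 ± 0.37) fell, and SHMT1 moved in opposite directions in the libraries, by -1.34 and 0.46.

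Of 19 tested ATF4 amino acid genes and transporters 7 rose and 5 fell. PHGDH (chr1:119648411-119744226), the first enzyme of serine synthesis, had 94 and 101 CPM in EGF 15 h cells, against 4.22 and 8.83 CPM in unstimulated cells (4.25 ± 0.34, adjusted p = 2.2e-14). ASNS, asparagine synthetase, had 132 and 162 CPM in EGF 15 h cells, against 14.3 and 30.9 CPM in unstimulated cells (3.0 ± 0.24, adjusted p = 2.4e-14). The pseudokinase TRIB3 had 37 and 56.8 CPM in EGF 15 h cells, against 5.9 and 17.7 CPM in unstimulated cells (2.36 ± 0.38). For PHGDH, ASNS and TRIB3 both EGF 15 h sums lay above both unstimulated sums. The transcription factor genes themselves were lower. ATF4 had 68.7 and 65.3 CPM in EGF 15 h cells, against 211 and 83.9 CPM in unstimulated cells (-1.43 ± 0.17, adjusted p = 2e-09). DDIT3 (CHOP) had 5.6 and 21.3 CPM in EGF 15 h cells, against 49.8 and 22.1 CPM in unstimulated cells, with log2 differences of -3.04 and -0.05 in libraries 1 and 2. SESN2 (-2.02 ± 0.53), the amino acid transporter SLC38A2 (-0.79 ± 0.13) and the mTOR inhibitor DDIT4 (-0.50 ± 0.14) fell as well. The calls of MTHFD1L, MTHFD1, IMPDH1, PRPS2, SHMT1, TRIB3, DDIT3, SESN2, ATF4, SLC38A2 and DDIT4 ended without the 0 h sum of library 1 (adjusted p = 0.093 to 0.96). That of PRPS2 ended without the 0 h sum of library 2 (adjusted p = 0.052). Those of MTHFD1, PRPS2, SHMT1, DDIT3 and SESN2 ended without the 15 h sum of library 1 (adjusted p = 0.054 to 0.67). Those of PRPS2, SHMT1, SLC38A2 and DDIT4 ended without the library block (adjusted p = 0.061 to 0.35). Those of PRPS2, SHMT1 and DDIT4 ended with scaling to library totals (adjusted p = 0.059 to 0.097). Among nucleotide and polyamine genes, 4 were higher and 0 lower without the 0 h sum of library 1, 16 and 1 without the 0 h sum of library 2, 10 and 0 without the 15 h sum of library 1, 13 and 0 without the library block and 19 and 0 with scaling to library totals. Among the amino acid list, 3 were higher and 0 lower without the 0 h sum of library 1, 5 and 3 without the 15 h sum of library 1 and 5 and 3 without the library block.

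Mitochondrial genes were split between import and respiration. Of 18 genes of mitochondrial import and protein folding 12 rose and 1 fell (median 0.51). The chaperone TRAP1 had 96 and 98 CPM in EGF 15 h cells, against 50.6 and 39.8 CPM in unstimulated cells (0.98 ± 0.18), and the translocase subunits TIMM50 and TOMM40 had log2 fold changes of 0.93 ± 0.21 and 0.88 ± 0.14. TFAM, the mitochondrial transcription factor, rose (0.83 ± 0.20), while the import receptor TOMM20 fell (-0.29 ± 0.11). Of 13 genes of the mitochondrial genome 9 fell and 0 rose (median -0.34), and MT-CO3, a subunit of cytochrome oxidase, had 10881 and 10345 CPM in EGF 15 h cells, against 16071 and 14222 CPM in unstimulated cells (-0.51 ± 0.09). MT-CYB (-0.50 ± 0.09), MT-ND1 (-0.50 ± 0.09) and MT-CO1 (-0.49 ± 0.09) fell as well. Of 30 nuclear-encoded respiratory chain genes 16 fell and 0 rose (median -0.32). The ATP synthase subunit ATP5F1A had 239 and 204 CPM in EGF 15 h cells, against 418 and 375 CPM in unstimulated cells (-0.83 ± 0.11). ATP5PO (-0.79 ± 0.11) belongs to the same enzyme. UQCRC1 and COX4I1 had log2 fold changes of -0.74 ± 0.12 and -0.64 ± 0.10. As with the ribosomal proteins, UMIs per cell were larger at EGF 15 h, with 659 and 603 UMIs from the mitochondrial genome, against 547 and 506 at 0 h, and 148 and 113 UMIs from the nuclear genes, against 110.3 and 93.9. The calls of ATP5PO, COX4I1, TIMM50, TFAM and TOMM20 ended without the 0 h sum of library 1 (adjusted p = 0.057 to 0.81). That of TFAM ended without the 15 h sum of library 1 (adjusted p = 0.22). That of TOMM20 ended without the 15 h sum of library 2 (adjusted p = 0.33). Those of MT-CO3, MT-CYB, MT-ND1, MT-CO1, COX4I1 and TOMM20 ended without the library block (adjusted p = 0.079 to 0.35). That of TOMM20 ended with scaling to library totals (adjusted p = 0.44). Among import genes, 6 were higher and 0 lower without the 0 h sum of library 1, 7 and 1 without the 15 h sum of library 1, 12 and 0 without the 15 h sum of library 2, 8 and 0 without the library block and 13 and 0 with scaling to library totals. Among genes of the mitochondrial genome, 0 were higher and 5 lower without the 0 h sum of library 1, 0 and 5 without the 15 h sum of library 1 and 0 and 0 without the library block. Among the nuclear respiratory genes, 0 were higher and 3 lower without the 0 h sum of library 1, 0 and 7 without the 15 h sum of library 1, 1 and 14 without the 15 h sum of library 2, 0 and 4 without the library block and 3 and 9 with scaling to library totals.

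Most tested cytosolic chaperone genes rose, the HSP90 co-chaperones STIP1 and AHSA1 among them, while the small heat shock proteins HSPB1 and CRYAB fell. Of 22 tested cytosolic chaperones 14 rose and 4 fell (median 0.66). The HSP90 co-chaperone STIP1 had 134 and 131 CPM in EGF 15 h cells, against 49.8 and 66.3 CPM in unstimulated cells (1.33 ± 0.18). AHSA1, which stimulates the same chaperone, had 130.0 and 129 CPM in EGF 15 h cells, against 45.5 and 88.3 CPM in unstimulated cells (1.27 ± 0.18). HSPB1 (HSP27) had 177 and 308 CPM in EGF 15 h cells, against 1622 and 945 CPM in unstimulated cells (-2.67 ± 0.16, adjusted p = 1e-18). CRYAB (alpha B crystallin) had 13.9 and 7.1 CPM in EGF 15 h cells, against 108 and 61.8 CPM in unstimulated cells (-2.95 ± 0.21, adjusted p = 5.9e-16). Across libraries, both EGF 15 h sums lay above both unstimulated sums for STIP1 and AHSA1, and below them for HSPB1 and CRYAB. The other fallers were DNAJB6 (-0.51 ± 0.13) and DNAJB1, with log2 differences of -0.80 and 0.01 in libraries 1 and 2. Of 26 proteasome genes 12 rose and 1 fell (median 0.36), with PSMD14 (1.09 ± 0.18), PSMD1 (0.74 ± 0.22) and PSMA7 (0.60 ± 0.10) higher and PSMB4 (-0.61 ± 0.13) lower. Of 24 lysosome and autophagy genes 3 rose and 6 fell. The autophagy genes GABARAPL1 (2.38 and 4.26 CPM in EGF 15 h cells, against 19.4 and 17.7 CPM in unstimulated cells; -2.83 ± 0.45), WIPI1 (-2.59 ± 0.46) and ULK1 (-2.49 ± 0.59) and the lysosomal protein GRN (-1.04 ± 0.18) fell, and the cathepsins CTSB (0.71 ± 0.17) and CTSZ (0.59 ± 0.22) and MAP1LC3B (0.59 ± 0.14) rose. The calls of STIP1, AHSA1, DNAJB1, DNAJB6, PSMD14, PSMD1, PSMB4, GABARAPL1, ULK1, CTSB, MAP1LC3B and CTSZ ended without the 0 h sum of library 1 (adjusted p = 0.068 to 0.77). Those of ULK1, GRN, CTSB and CTSZ ended without the 15 h sum of library 1 (adjusted p = 0.052 to 0.38). That of CTSZ ended without the 15 h sum of library 2 (adjusted p = 0.067). Those of DNAJB1, PSMA7, MAP1LC3B and CTSZ ended without the library block (adjusted p = 0.084 to 0.28). Among chaperones, 7 were higher and 2 lower without the 0 h sum of library 1. Among proteasome genes, 2 were higher and 0 lower without the 0 h sum of library 1, 6 and 1 without the 15 h sum of library 1 and 4 and 1 without the library block. Among the lysosome list, 0 were higher and 3 lower without the 0 h sum of library 1, 1 and 4 without the 15 h sum of library 1 and 1 and 5 without the library block.

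Glycolysis genes were partly higher, and most lipid synthesis genes were not called. Of 20 tested glycolysis genes 7 rose and 1 fell (median 0.22), with the lactate transporters SLC16A3 (111 and 118 CPM in EGF 15 h cells, against 33.7 and 70.7 CPM in unstimulated cells; 1.47 ± 0.20) and SLC16A1 (1.46 ± 0.26) and the phosphofructokinase PFKP (1.24 ± 0.19) higher. The glucose transporter SLC2A1 (GLUT1) was lower, at 26.8 and 38.3 CPM in EGF 15 h cells, against 54.8 and 106 CPM in unstimulated cells (-1.15 ± 0.21, adjusted p = 2.7e-05). Of 22 sterol genes 3 rose and 2 fell, a share near the background: HMGCS1 (0.81 ± 0.29), SQLE (0.50 ± 0.16) and PMVK (0.47 ± 0.18, with log2 differences of 0.64 and -0.27 in libraries 1 and 2) were higher, LSS (-1.23 ± 0.41) and FDPS (-0.38 ± 0.13) lower. Of 12 fatty acid genes 2 rose and 1 fell, namely ELOVL6 (1.44 ± 0.36) and ACLY (0.83 ± 0.30), and ELOVL5 (-0.63 ± 0.24). The calls of SLC16A3, SLC16A1, PFKP, LSS, HMGCS1, SQLE, PMVK, FDPS, ELOVL6, ACLY and ELOVL5 ended without the 0 h sum of library 1 (adjusted p = 0.12 to 0.98). Those of FDPS and ELOVL5 ended without the 0 h sum of library 2 (adjusted p = 0.079 to 0.094). Those of LSS, PMVK, FDPS, ACLY and ELOVL5 ended without the 15 h sum of library 1 (adjusted p = 0.2 to 0.75). Those of HMGCS1 and SQLE ended without the 15 h sum of library 2 (adjusted p = 0.069 to 0.11). Those of LSS, HMGCS1, SQLE, PMVK, FDPS and ELOVL5 ended without the library block (adjusted p = 0.056 to 0.34). Those of FDPS and ELOVL5 ended with scaling to library totals (adjusted p = 0.16 to 0.26). Among glycolysis genes, 1 was higher and 1 lower without the 0 h sum of library 1. Among sterol genes, 0 were higher and 0 lower without the 0 h sum of library 1, 4 and 1 without the 0 h sum of library 2, 3 and 0 without the 15 h sum of library 1, 1 and 2 without the 15 h sum of library 2, 0 and 0 without the library block and 3 and 1 with scaling to library totals. Among fatty acid genes, 0 were higher and 0 lower without the 0 h sum of library 1, 2 and 0 without the 0 h sum of library 2, 2 and 0 without the 15 h sum of library 1, 2 and 0 without the library block and 4 and 0 with scaling to library totals.

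In the basal layer genes, the laminin genes LAMA3 and LAMB3 rose and the keratins KRT5, KRT14 and KRT15 fell in CPM. Of 14 tested genes 6 rose and 4 fell. Per cell the list gave 185.5 and 203.3 UMIs at EGF 15 h, against 140.9 and 147.9 UMIs at 0 h. LAMA3 had 101 and 86.6 CPM in EGF 15 h cells, against 33.7 and 30.9 CPM in unstimulated cells (1.57 ± 0.23, adjusted p = 5e-07). LAMB3 had 182 and 270.0 CPM in EGF 15 h cells, against 64.1 and 97.2 CPM in unstimulated cells (1.55 ± 0.18). Both EGF 15 h sums lay above both unstimulated sums for LAMA3 and LAMB3. The integrins ITGA6 (0.94 ± 0.15), ITGB4 (1.32 ± 0.16) and ITGA3 (1.34 ± 0.20) rose too. KRT15, a keratin of resting basal cells, had 3.56 and 12.8 CPM in EGF 15 h cells, against 48.1 and 61.8 CPM in unstimulated cells (-3.42 ± 0.41, adjusted p = 3.6e-09). DST, the plakin that anchors keratin to hemidesmosomes, had 182 and 240.0 CPM in EGF 15 h cells, against 728 and 693 CPM in unstimulated cells (-1.85 ± 0.12, adjusted p = 3.3e-18). KRT14 (-0.55 ± 0.09) and KRT5 (-0.38 ± 0.10) fell by less. Of 10 tested luminal and simple epithelial genes 3 rose and 4 fell. The epithelial transcription factor ELF3 had 0.17 and 5.68 CPM in EGF 15 h cells, against 10.1 and 30.9 CPM in unstimulated cells (-3.98 ± 0.78). CD24, a surface glycoprotein, had 35.5 and 139 CPM in EGF 15 h cells, against 149 and 163 CPM in unstimulated cells (-1.52 ± 0.22). The keratin KRT8 (-1.10 ± 0.24) and the tight junction gene CLDN4 were lower as well, and KRT18 (0.75 ± 0.14), KRT7 (0.47 ± 0.13) and CLDN7 (0.55 ± 0.17) higher. CD24 lay at 139 CPM in the EGF 15 h sum of library 2, near both unstimulated values. CLDN4 rests on 3 and 0 UMIs in EGF 15 h cells and 2 and 5 in unstimulated cells, with a ratio of 0.0917, 95% counting interval 0.0153 to 0.402. The calls of ITGA3, KRT5, CLDN4, CD24, KRT8, KRT18 and KRT7 ended without the 0 h sum of library 1 (adjusted p = 0.07 to 0.53). Those of CLDN4 and CLDN7 ended without the 0 h sum of library 2 (adjusted p = 0.15 to 0.34). Those of KRT5, ELF3, CD24, KRT18 and KRT7 ended without the 15 h sum of library 1 (adjusted p = 0.051 to 0.11). Those of CLDN4 and CLDN7 ended without the 15 h sum of library 2 (adjusted p = 0.056 to 0.12). Those of KRT14, KRT5, CLDN4, CD24, KRT18, KRT7 and CLDN7 ended without the library block (adjusted p = 0.051 to 0.39). Among basal genes, 6 were higher and 2 lower without the library block. Among luminal genes, 1 was higher and 1 lower without the 0 h sum of library 1, 1 and 2 without the 15 h sum of library 1 and 0 and 2 without the library block.

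Squamous and stress keratinocyte genes moved in both directions, with 8 higher and 11 lower of 30 tested. The libraries disagreed on the list, with a median log2 difference of -0.63 in library 1 and 0.37 in library 2. S100A7 (psoriasin, chr1:153457744-153460701), an antimicrobial protein of stressed skin, had 0 and 2 UMIs in EGF 15 h cells and 126 and 18 in unstimulated cells, a ratio of 0.00297, 95% counting interval 0.000357 to 0.0109 (adjusted p = 2e-10). LCN2, an iron-trapping lipocalin, had 1.19 and 12.8 CPM in EGF 15 h cells, against 32 and 35.3 CPM in unstimulated cells (-3.63 ± 0.58). For S100A7 and LCN2 both EGF 15 h sums lay below both unstimulated sums. On the other side, the calcium-binding protein S100P had 1089 and 839 CPM in EGF 15 h cells, against 469 and 402 CPM in unstimulated cells (1.15 ± 0.12, adjusted p = 5.4e-11). The cornified envelope precursor SPRR2D had 76.7 and 135 CPM in EGF 15 h cells, against 22.8 and 22.1 CPM in unstimulated cells (1.93 ± 0.28), and SPRR1B had a log2 fold change of 1.47 ± 0.30. The elastase inhibitor PI3 had 122 and 206 CPM in EGF 15 h cells, against 7.59 and 97.2 CPM in unstimulated cells (log2 differences 3.92 and 1.08). KRT6A, a keratin of activated keratinocytes, had a log2 fold change of 0.95 ± 0.10. KRT6B (1.08 ± 0.42) and KRT6A are near-identical in sequence, so reads may be split between them. S100A2 (0.79 ± 0.12) and SERPINB5 (0.39 ± 0.12) rose by less. The calls of LCN2, PI3, SPRR1B, KRT6B and SERPINB5 ended without the 0 h sum of library 1 (adjusted p = 0.075 to 0.72). Those of LCN2 and SERPINB5 ended without the 15 h sum of library 1 (adjusted p = 0.14). That of KRT6B ended without the 15 h sum of library 2 (adjusted p = 0.13). Those of SPRR1B, KRT6B, S100A2 and SERPINB5 ended without the library block (adjusted p = 0.054 to 0.36). Among the squamous list, 4 were higher and 6 lower without the 0 h sum of library 1, 8 and 5 without the 15 h sum of library 1 and 4 and 8 without the library block.

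Among migration, protease and adhesion genes 6 of 23 tested rose and 5 fell. The protease inhibitor SERPINE2 had 46 and 6 UMIs in EGF 15 h cells and none in unstimulated cells, at least 3.71-fold higher. The chemokine CXCL1 had 11 and 29.8 CPM in EGF 15 h cells, against 0 and 4.42 CPM in unstimulated cells, a ratio of 18.4, 95% counting interval 3.22 to 735. MMP7 (1.87 and 9.94 CPM in EGF 15 h cells, against 18.6 and 17.7 CPM in unstimulated cells; -2.66 ± 0.52), IL1B (-2.47 ± 0.56), ITGB6 (-1.29 ± 0.46), IL1A (-0.69 ± 0.25) and TIMP3 (-0.51 ± 0.15) fell. The AP-1 letters TGANTCA were in the windows of 6 of 23 genes of this list (26.1%), against 9.37% of all genes and 6.83% of tested ones. Of 16 tested mesenchymal and matrix genes 4 rose and 6 fell. LOX, which cross-links collagen, had 0.509 and 0 CPM in EGF 15 h cells, against 22.8 and 22.1 CPM in unstimulated cells, a ratio of 0.0201, 95% counting interval 0.00393 to 0.0641 (adjusted p = 3e-10). COL7A1, the anchoring fibril collagen, had 4.07 and 7.1 CPM in EGF 15 h cells, against 30.4 and 53 CPM in unstimulated cells (-2.94 ± 0.37). DCN (decorin) had 17.8 and 5.68 CPM in EGF 15 h cells, against 110.0 and 88.3 CPM in unstimulated cells (-2.76 ± 0.22). CDH1 (E-cadherin) had 17.1 and 29.8 CPM in EGF 15 h cells, against 48.9 and 79.5 CPM in unstimulated cells (-1.50 ± 0.22, adjusted p = 5e-07). Across libraries, both EGF 15 h sums lay below both unstimulated sums for LOX, COL7A1, DCN and CDH1. THBS1 (2.26 ± 0.52) and SNAI2 (0.88 ± 0.31) rose, and COL4A1 and COL4A2 had 22 and 3 and 28 and 1 UMIs at EGF 15 h and none at 0 h, at least 1.78-fold and 2.07-fold higher. The calls of CXCL1, SERPINE2, MMP7, IL1B, ITGB6, IL1A, TIMP3, SNAI2, THBS1, COL4A1 and COL4A2 ended without the 0 h sum of library 1 (adjusted p = 0.13 to 0.91). That of SNAI2 ended without the 0 h sum of library 2 (adjusted p = 0.08). Those of MMP7, ITGB6, IL1A, TIMP3, COL4A1 and COL4A2 ended without the 15 h sum of library 1 (adjusted p = 0.089 to 0.44). That of SNAI2 ended without the 15 h sum of library 2 (adjusted p = 0.053). Those of CXCL1, ITGB6, IL1A, SNAI2 and COL4A1 ended without the library block (adjusted p = 0.065 to 0.1). Those of ITGB6, IL1A and TIMP3 ended with scaling to library totals (adjusted p = 0.061 to 0.14). Among migration genes, 0 were higher and 0 lower without the 0 h sum of library 1, 4 and 1 without the 15 h sum of library 1, 4 and 3 without the library block and 6 and 2 with scaling to library totals. Among matrix genes, 0 were higher and 4 lower without the 0 h sum of library 1, 2 and 6 without the 15 h sum of library 1 and 2 and 6 without the library block.

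Cytoskeletal genes and targets of YAP moved both ways. Of 30 tested genes 8 rose and 13 fell, and the median log2 difference was -0.62 in library 1 and 0.15 in library 2. TAGLN (transgelin) had 716 and 575 CPM in EGF 15 h cells, against 223 and 137 CPM in unstimulated cells (1.72 ± 0.13, adjusted p = 5.2e-15). TMSB4X, which binds actin monomers, had 1067 and 974 CPM in EGF 15 h cells, against 363 and 667 CPM in unstimulated cells (1.19 ± 0.14). ACTB (beta actin) had 4412 and 4160.0 CPM in EGF 15 h cells, against 2411 and 2169 CPM in unstimulated cells (0.90 ± 0.10, adjusted p = 1.8e-10). Both EGF 15 h sums lay above both unstimulated sums for TAGLN, TMSB4X and ACTB. ACTN1 (1.06 ± 0.21), PFN1 (0.99 ± 0.11), FLNA (0.93 ± 0.16), the YAP target F3 (tissue factor, 0.70 ± 0.17) and TMSB10 (0.61 ± 0.11) were the other risers. The fallers included the YAP targets CTGF and CYR61 given above, the LIM protein FHL2 (-1.96 ± 0.20) and ANKRD1, with 1 and 0 UMIs in EGF 15 h cells and 4 and 1 in unstimulated cells (ratio 0.0428, 95% counting interval 0.000905 to 0.383). They also included ACTG1 (gamma actin, -0.73 ± 0.12), ACTN4 (alpha-actinin 4, -0.48 ± 0.14), TPM1 (a tropomyosin, -1.44 ± 0.14) and MYL9 (a myosin light chain, -0.70 ± 0.25). The calls of ANKRD1, FHL2, ACTN1, F3, TMSB10, ACTG1, ACTN4 and MYL9 ended without the 0 h sum of library 1 (adjusted p = 0.066 to 0.61). Those of ANKRD1, ACTN1, ACTN4 and MYL9 ended without the 15 h sum of library 1 (adjusted p = 0.087 to 0.3). Those of PFN1, F3, TMSB10, ACTG1, ACTN4 and MYL9 ended without the library block (adjusted p = 0.074 to 0.41). Those of ACTN4 and MYL9 ended with scaling to library totals (adjusted p = 0.096 to 0.13). Among the cytoskeleton list, 5 were higher and 2 lower without the 0 h sum of library 1, 7 and 8 without the 15 h sum of library 1 and 5 and 8 without the library block.

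Genes of p53 and of interferon were lower in CPM or not called, except GDF15 and AEN. Of 18 p53 targets 2 rose and 9 fell. Per cell they gave 6.45 and 6.66 UMIs at EGF 15 h, against 5.27 and 6.03 UMIs at 0 h. BBC3 (PUMA), which promotes cell death and is also a FOXO target, had 3.22 and 7.1 CPM in EGF 15 h cells, against 23.6 and 39.8 CPM in unstimulated cells (-2.81 ± 0.40, adjusted p = 1.4e-07). SESN1 had 4.24 and 5.68 CPM in EGF 15 h cells, against 16.9 and 17.7 CPM in unstimulated cells (-1.93 ± 0.43). GDF15 had 10.4 and 9.94 CPM in EGF 15 h cells, against 1.69 and 4.42 CPM in unstimulated cells (ratio 4.85, 95% counting interval 1.59 to 24.1). The nuclease AEN had 16 and 19.9 CPM in EGF 15 h cells, against 3.37 and 13.3 CPM in unstimulated cells (1.72 ± 0.50), and both rose. Of 15 tested interferon and MHC class I genes 7 fell and 0 rose. Per cell this list gave 8.52 and 8.09 UMIs at EGF 15 h, against 8.22 and 6.83 UMIs at 0 h. B2M, the light chain of MHC class I, had 334 and 341 CPM in EGF 15 h cells, against 703 and 455 CPM in unstimulated cells (-0.88 ± 0.11, adjusted p = 2.4e-08), and HLA-E and HLA-C had log2 fold changes of -0.88 ± 0.18 and -0.79 ± 0.18. IFIT1 had 2 and 0 UMIs in EGF 15 h cells and 11 and 3 in unstimulated cells (ratio 0.0306, 95% counting interval 0.00337 to 0.133). HLA genes resemble each other, so reads may be shared among them. The calls of SESN1, GDF15, AEN, IFIT1, B2M, HLA-E and HLA-C ended without the 0 h sum of library 1 (adjusted p = 0.067 to 0.99). Those of SESN1 and GDF15 ended without the 15 h sum of library 1 (adjusted p = 0.068 to 0.13). That of GDF15 ended without the library block (adjusted p = 0.062). Among p53 targets, 0 were higher and 2 lower without the 0 h sum of library 1, 1 and 2 without the 15 h sum of library 1 and 1 and 7 without the library block. Among interferon genes, 0 were higher and 0 lower without the 0 h sum of library 1, 0 and 4 without the 15 h sum of library 1 and 1 and 7 with scaling to library totals.

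Several of the 12 largest rises and 12 largest falls belonged to no list (called genes averaging at least 20 CPM in either condition, with libraries that agreed in sign). FAM111B, a protease linked to replication, had 35.1 and 48.3 CPM in EGF 15 h cells, against 0.843 and 4.42 CPM in unstimulated cells, a ratio of 25.8, 95% counting interval 7.06 to 214 (adjusted p = 3.8e-06). ZBED2 (chr3:111592900-111595443), a zinc finger factor of keratinocytes, had 26.8 and 38.3 CPM in EGF 15 h cells, against 1.69 and 0 CPM in unstimulated cells (ratio 19.8, 95% counting interval 5.4 to 165). The transporter ABCC3 had 37.2 and 38.3 CPM in EGF 15 h cells, against 3.37 and 0 CPM in unstimulated cells (3.71 ± 0.46). PCK2, mitochondrial phosphoenolpyruvate carboxykinase, had 36.3 and 35.5 CPM in EGF 15 h cells, against 3.37 and 0 CPM in unstimulated cells (3.66 ± 0.50). For FAM111B, ZBED2, ABCC3 and PCK2 both EGF 15 h sums lay above both unstimulated sums. The cadherin CDH4 had 20.7 and 19.9 CPM in EGF 15 h cells, against 0.843 and 4.42 CPM in unstimulated cells (ratio 14.6, 95% counting interval 3.95 to 121). The nuclear lamin LMNB1 had 17.5 and 24.1 CPM in EGF 15 h cells, against 1.69 and 0 CPM in unstimulated cells (ratio 12.8, 95% counting interval 3.48 to 107). DTL, which targets the licensing factor CDT1 for degradation, had 25.6 and 32.7 CPM in EGF 15 h cells, against 2.53 and 0 CPM in unstimulated cells (ratio 12.4, 95% counting interval 4.18 to 60.8). PHGDH, GINS2, CXCL1, E2F1 and DUSP4, described above, complete the rises.

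Of the falls, BEST2, a calcium-activated chloride channel, had 3.73 and 1.42 CPM in EGF 15 h cells, against 90.2 and 39.8 CPM in unstimulated cells (-4.59 ± 0.32, adjusted p = 1.4e-16), and the guanylate-binding protein GBP1 had 0.509 and 1.42 CPM in EGF 15 h cells, against 37.1 and 17.7 CPM in unstimulated cells (-5.65 ± 0.56). BBOX1, the last enzyme of carnitine synthesis, had 1 and 1 UMIs in EGF 15 h cells and 19 and 6 in unstimulated cells, a ratio of 0.0171, 95% counting interval 0.00197 to 0.0687. CLIC3 had 5.77 and 5.68 CPM in EGF 15 h cells, against 122 and 48.6 CPM in unstimulated cells (-4.24 ± 0.29). Across libraries, both EGF 15 h sums lay below both unstimulated sums for BEST2, GBP1, BBOX1 and CLIC3. TUFT1 had 1.19 and 4.26 CPM in EGF 15 h cells, against 32.9 and 26.5 CPM in unstimulated cells (-4.29 ± 0.45). PLEKHO1 had 1.7 and 0 CPM in EGF 15 h cells, against 32.9 and 17.7 CPM in unstimulated cells (-4.27 ± 0.49). The kinase-dead ephrin receptor EPHB6 had 2.55 and 1.42 CPM in EGF 15 h cells, against 37.9 and 57.4 CPM in unstimulated cells (-4.08 ± 0.38). The lincRNA AL035446.1 (chr6:140845958-140852924) had 1.53 and 0 CPM in EGF 15 h cells, against 29.5 and 17.7 CPM in unstimulated cells (-4.33 ± 0.46). These 4 genes were low in EGF 15 h cells, where PLEKHO1 and AL035446.1 were detected in library 1 only. CYP1A1, a target of the aryl hydrocarbon receptor, had no UMIs in EGF 15 h cells and 1 and 13 in unstimulated cells. With the libraries pooled it was 21.8-fold lower against a floor of 3 counts over the EGF 15 h group. Most EGF 15 h UMIs came from library 1, so this value is no bound within library 2. Nearly all of its unstimulated UMIs came from the 29 cells of library 2. S100A7, FBXO32 and LOX, described above, complete the falls. The calls of FAM111B, CDH4, LMNB1 and PLEKHO1 ended without the 0 h sum of library 1 (adjusted p = 0.096 to 0.29). That of CYP1A1 ended without the 0 h sum of library 2 (adjusted p = 0.17).

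The same genes measured at later times with EGF alone give the levels after 15 h. In libraries 1 and 2, FBXO32 had 54 and 44.2 CPM at 0 h, 0.679 and 1.42 CPM at 15 h, 2.41 and 2.24 CPM at 20 h and 2.64 and 2.2 CPM at 30 h. DUSP4 had 3.37 and 13.3 CPM at 0 h, 60.1 and 65.3 CPM at 15 h, 46.6 and 48 CPM at 20 h and 54.4 and 58.8 CPM at 30 h. FBXO32 stayed far below and DUSP4 far above its unstimulated level at every later time. UHRF1 had 3.37 and 8.83 CPM at 0 h, 40.4 and 34.1 CPM at 15 h, 65 and 70.3 CPM at 20 h and 38.8 and 36.2 CPM at 30 h. PHGDH had 4.22 and 8.83 CPM at 0 h, 94 and 101 CPM at 15 h, 47.4 and 51.8 CPM at 20 h and 17.1 and 12.5 CPM at 30 h. Thus UHRF1 was highest at 20 h and PHGDH at 15 h among the measured times. EIF4EBP1 had 91.9 and 155 CPM at 0 h, 523 and 429 CPM at 15 h, 345 and 295 CPM at 20 h and 274 and 226 CPM at 30 h. KRT15 had 48.1 and 61.8 CPM at 0 h, 3.56 and 12.8 CPM at 15 h, 12 and 35.2 CPM at 20 h and 29.8 and 30.4 CPM at 30 h, part of the way back to its unstimulated level by 30 h. CDKN1C had 144 and 92.8 CPM at 0 h, 17.1 and 18.5 CPM at 15 h, 9.95 and 9.59 CPM at 20 h and 10.8 and 6.76 CPM at 30 h. AREG had 96.1 and 296 CPM at 0 h, 420.0 and 572 CPM at 15 h, 690.0 and 575 CPM at 20 h and 770.0 and 772 CPM at 30 h. CDKN1C was lower and AREG higher at 30 h than at 15 h in both libraries. These later values share the unstimulated sums with the comparison at 15 h and are given as levels, with no test.

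**Figure D5:**
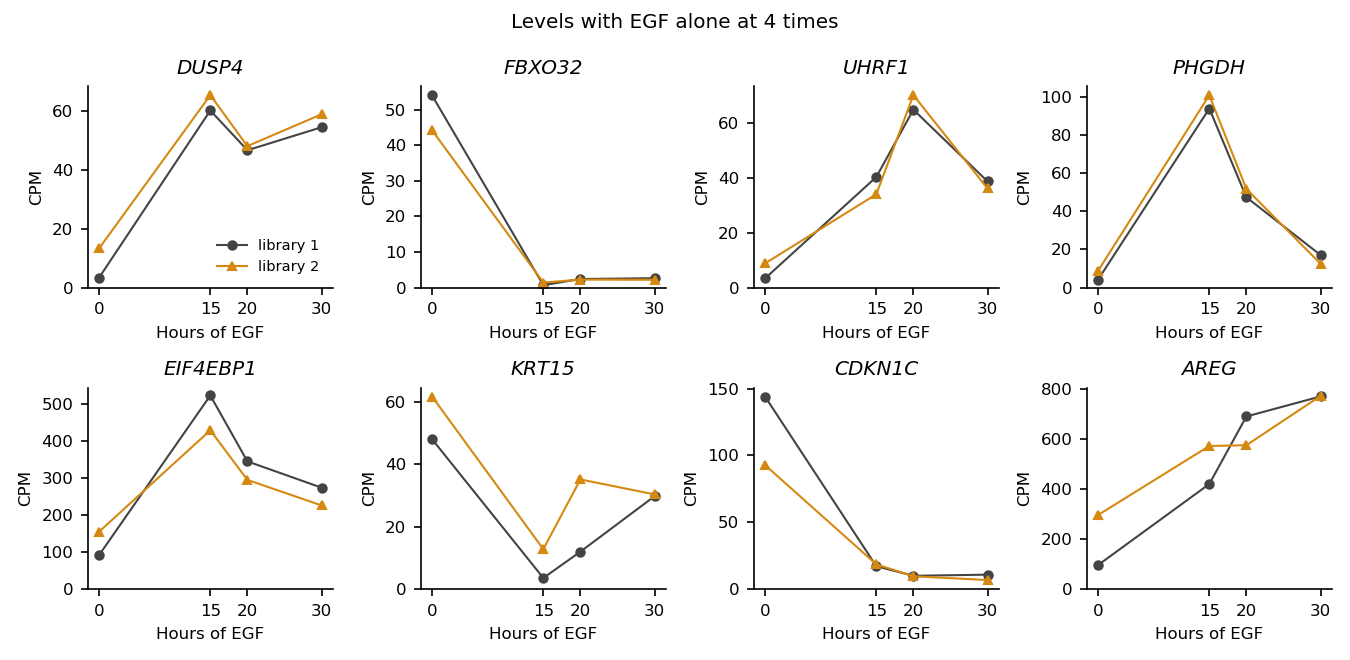
Level of 8 genes in CPM (vertical, linear from 0) in cells without EGF and after 15, 20 and 30 h of EGF alone (horizontal), 1 line per library. PHGDH is highest at 15 h (94.0 and 101 CPM) and UHRF1 at 20 h (65.0 and 70.3 CPM), while FBXO32 stays at or below 2.64 CPM from 15 h on.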

How the data were processed

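Single MCF10A cells of 2 biological replicates were measured by droplet RNA sequencing, and each library pooled 8 tagged, methanol-fixed conditions, per the labels' protocols. The files deposited by the authors hold whole-number counts of UMIs for each gene and cell. They were made with Cell Ranger 3.0.2 and Seurat on GRCh38 per the submitters' processing notes. No cell filter or strand setting is stated, nor whether genes that overlap on opposite strands were kept apart. Cells were joined to their tag and to its condition name. Barcodes called doublets (4848 of 8641 and 2478 of 6161) or negative (616 and 262) by the authors were left out, and 2616 and 2221 cells were in both the tag calls and the count tables.

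Counts were summed per library and condition over the 16387 genes in both tables. All 16 sums entered edgeR 4.0.16 (R 4.3.3, filterByExpr, TMM, quasi-likelihood F test) with the library as a block, since each library holds every condition. P-values were adjusted over 11147 tested genes by the Benjamini-Hochberg method at 0.05, and every adjusted p printed comes from this test or the named alternative. Deviations from condition means correlated between same-library sums (median r 0.588, 0.281 to 0.677 over 28 pairs of conditions). Values are CPM of the TMM-scaled sum. Differences given as ± are log2 fold changes with their standard error, and per-library differences use a prior count of 2. Genes with 0 counts in a condition are given as bounds against 3 counts. Those with 1 to 3 counts are given as ratios with exact 95% intervals, which cover counting error only. Bounds and ratios pool the UMIs of both libraries and do not hold for each library alone. The test was checked on counts simulated from its own fit, with equal changes in both libraries. That check does not cover genes whose libraries disagree. Cells were thinned to 5000 UMIs. Motifs were searched in RefSeq windows of GRCh38.p14, and gene positions come from GENCODE on GRCh38.

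Named genes are the 12 largest rises and falls with at least 20 CPM and the same sign in both libraries, up to 4 called members of each list, called members against their list's direction and a fixed set (EGFR, DUSP6, EGR1, FOS, MYC, CCND1, CCNE2, MKI67 and CDK inhibitors among them). The members and lists were chosen with earlier results of these data known. Alternatives changed the scaling, filter, block, depth, samples and tool (DESeq2 1.42.0).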

Additional observations from a re-analysis of the deposited data

How the results depend on the processing

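Genes higher and lower at EGF 15 h numbered 1567 and 1549. They numbered 977 and 900 without the library block, 243 and 409 with sums thinned to 200000 UMIs (3711 genes tested), 949 and 1116 with only the 4 sums of the comparison (7147 tested) and 2260 and 1152 with library totals. Leaving out 1 sum gave 220 to 1532 higher and 282 to 1580 lower genes, the lowest without the 0 h sum of library 1. DESeq2 gave 1121 and 1417. In each of these fits no gene called in both it and the fit described changed sign. Of 211 genes, the 202 of the naming rule and 9 chosen after their values were seen, 141 stayed on their side of the threshold without the block, 196 with library totals and 85 without the 0 h sum of library 1. The log2 fold change of MKI67 was -0.25 without the deepest 20% of cells, -0.44 with thinned sums and -0.5 to 1.55 when 1 sum was left out. Those of MAD2L1 and PMVK were -0.06 and -0.04 with thinned sums, ACTN4 ranged over -0.68 to 0.37, MYL9 over -0.89 to 0.76, CDKN1A ranged over -0.58 to 0.06 and DNAJB1 over -0.95 to 0.31 when 1 sum was left out, and the cause was not tested. Depth limits the 0 h sum of library 2 most, with 213216 UMIs.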
